A study of Mus musculus with 32 samples.

Results

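The cyclin-dependent kinase (CDK) inhibitors and the D-type cyclins of mouse C2C12 cells were followed through 12 of the 12488 probe sets in the deposited expression table, which stand for 9 of the 8251 genes named there. The members were all probe sets annotated to the inhibitors Cdkn1a, Cdkn1b, Cdkn1c, Cdkn2a, Cdkn2c and Cdkn2d and the D cyclins Ccnd1, Ccnd2 and Ccnd3. Cdkn1a, Cdkn1b and Ccnd1 have 2 probe sets each, and these were kept apart. C2C12 is an established mouse skeletal myoblast line that stops dividing and fuses into myotubes when serum is lowered. In the TSA arm, 20 arrays cover 10 groups of 2: control cells and cells given trichostatin A, here TSA, which inhibits zinc-dependent histone deacetylases, each in growth medium (called 0 h) and at 4, 12, 24 and 48 h of differentiation medium. In the Sir2 arm, 12 arrays cover 4 groups of 3: cells carrying the pHan vector alone and cells carrying pHan Sir2, each after 12 and 36 h in differentiation medium, so that every group of this arm had already left growth medium. Sir2 belongs to the NAD-dependent deacetylases, of which Sirt1 is the mouse counterpart. The labels do not state the dose of TSA, how long cells had been treated by 0 h, the promoter that drives Sir2, or whether the cells are clones or pools.

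CDK inhibitors and D cyclins act at the same step of the cell cycle. D cyclins bind and activate Cdk4 and Cdk6, which phosphorylate the retinoblastoma protein and release E2F factors that drive entry into S phase. The Cip/Kip inhibitors, p21 (Cdkn1a), p27 (Cdkn1b) and p57 (Cdkn1c), bind cyclin-CDK complexes, chiefly those of Cdk2, whereas the INK4 inhibitors, p16 (Cdkn2a), p18 (Cdkn2c) and p19 (Cdkn2d), bind Cdk4 and Cdk6 directly and keep the D cyclins off. The Cdkn2a locus also encodes Arf, a protein read in another frame that acts on Mdm2. In differentiating muscle, p21 is known to rise with permanent cell cycle exit, cyclin D1 to fall, and cyclin D3 to accumulate bound to the retinoblastoma protein in myotubes. In mice, p21 and p57 are known to act redundantly in skeletal muscle formation.

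Levels are intensities on a linear scale, as deposited, and the 2 arms were scaled separately, so no level is compared between arms or between probe sets. Array medians of the TSA arm lay between 253 and 287, and those of the Sir2 arm between 50.4 and 57.6. In the TSA arm 21.0% to 24.2% of the values on an array were at or below 0. Arrays of a group correlated with Spearman coefficients of 0.911 to 0.966 (TSA arm, lowest for the control at 48 h) and 0.963 to 0.971 (Sir2 arm). The probe set of Sirt1 was 0.95 ± 0.19 higher (log2, standard error) in Sir2 cells over both times (adjusted p = 0.00641). All 10 markers on the list for skeletal myoblasts and myotubes exceeded the filter on low values in both arms, although in early TSA-arm groups some did not exceed 0 on either array: Ckm and Tnnc1 with TSA at 4 h, Myh3 with TSA at 12 h, and Myh3 and Tnnc1 in the control at 4 h. The lists for other cell types stood mostly below the filter: 1 of 7 leukocyte genes in each arm, 1 of 7 endothelial genes (TSA arm) and none (Sir2 arm), 1 of 5 adipocyte, 2 of 6 epithelial and 3 of 6 neuronal genes. The myotube list had a summed level of 9884 to 10832 in the control at 0 h, 96817 to 104125 in the control at 48 h and 126921 to 144878 with TSA at 48 h. The neuronal list, most of it Tubb3, summed to 4000.0 to 4392 in the control at 48 h and to 8818 to 12446 with TSA at 48 h. In the Sir2 arm the myotube list summed to 8714 to 9291 in vector and 5116 to 5891 in Sir2 cells at 12 h, and to 23216 to 23458 and 16430.0 to 19527 at 36 h. The part of these shifts in the results below was not tested, and in such bulk samples fewer cells of a type and less RNA per cell cannot be told apart. The labels do not state separate cultures for the replicates, and a p-value then measures just the spread among the samples at hand, which may be technical.

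Cdkn1a and Ccnd3 are an inhibitor and a D cyclin that rose in the control and vector cells of both arms. Of the D cyclins above the filter on low values, only Ccnd3 did so. Cdkn1c rose there too but has no window in the table. Both genes have 2 annotated start sites each on chromosome 17, and the 250 bases before each start are shown from RefSeq (build GRCm38.p6, plus strand, 5' to 3'). Such windows were found for 6 of the 9 member genes, 10 windows in all, and not for Cdkn1c, Ccnd1 or Ccnd2. Capitals mark matches to the p53 decamer in the first Cdkn1a window and to the GC box GGGCGG, on either strand, in the other 3.
Cdkn1a upstream window (chr17:29090729-29090978): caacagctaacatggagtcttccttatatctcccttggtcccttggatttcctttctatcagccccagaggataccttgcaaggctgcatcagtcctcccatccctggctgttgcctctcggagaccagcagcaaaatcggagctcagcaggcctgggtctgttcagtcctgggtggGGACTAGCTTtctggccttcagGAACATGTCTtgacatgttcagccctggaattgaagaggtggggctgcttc
Cdkn1a downstream window (chr17:29093519-29093768): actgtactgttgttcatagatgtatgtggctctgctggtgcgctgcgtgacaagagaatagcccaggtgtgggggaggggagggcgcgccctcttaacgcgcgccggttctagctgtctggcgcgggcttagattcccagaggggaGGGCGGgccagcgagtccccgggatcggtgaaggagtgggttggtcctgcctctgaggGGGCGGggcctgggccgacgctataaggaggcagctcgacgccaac
Ccnd3 upstream window (chr17:47504801-47505050): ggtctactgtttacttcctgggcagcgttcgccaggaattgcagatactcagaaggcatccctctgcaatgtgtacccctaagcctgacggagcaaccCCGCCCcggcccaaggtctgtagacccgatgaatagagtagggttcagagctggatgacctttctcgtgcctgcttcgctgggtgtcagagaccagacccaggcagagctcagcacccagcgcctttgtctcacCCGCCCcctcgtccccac
Ccnd3 downstream window (chr17:47593217-47593466): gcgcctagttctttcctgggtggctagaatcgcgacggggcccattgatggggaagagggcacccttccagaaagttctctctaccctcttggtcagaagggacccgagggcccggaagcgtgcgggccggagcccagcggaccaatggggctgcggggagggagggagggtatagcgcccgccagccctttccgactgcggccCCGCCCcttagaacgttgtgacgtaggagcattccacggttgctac
The GC box, which Sp1 and Sp3 bind, was present in 7 of the 10 member windows and in 32.7% of the 32851 windows of the same length in the table. In the downstream Cdkn1a window its matches began 104 and 46 bases before the start, in the upstream Ccnd3 window 152 and 18 bases before it, and in the downstream Ccnd3 window 46 bases before it. The p53 decamer, the unit that pairs with a second copy in a full p53 response element, was present in 2 of the 10 member windows and in 7.13% of all windows: at 73 and 51 bases before the upstream Cdkn1a start and at 102 bases before that of Cdkn2d. The E-box CANNTG, which MyoD and myogenin bind, was present in 1 of the 10 member windows, the downstream Cdkn1a window (187 bases before the start), and in 66.2% of all windows. All 3 motifs were searched on both strands for exact matches only, so near matches are not marked. Whether the 2 Cdkn1a decamers belong to a full element was not tested. A match describes the letters and not a site in use.

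During differentiation of the control cells, the Cip/Kip inhibitors Cdkn1a and Cdkn1c and the D cyclin Ccnd3 rose, and Ccnd1 and the INK4 inhibitor Cdkn2d fell. Of the 10 member probe sets bright enough to test, 7 passed an adjusted p of 0.05 between 48 and 0 h, against 35.3% of all 7453 probe sets tested. The 4 that were higher (16% of all were) were both of Cdkn1a, Cdkn1c and Ccnd3, and the 3 that were lower (19.3% of all were) were both of Ccnd1 and Cdkn2d. The median log2 change of the 10 was 0.23, against 0.01 over all probe sets tested. Cdkn1b, Cdkn2a and Cdkn2c did not pass. Log2 changes are on the scale of log2 of intensity plus a constant (137.7 in the TSA arm), which compresses those of dim probe sets, and they are given with standard errors and with adjusted p-values from limma.

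In the TSA-treated cells, 5 of the 10 passed between 48 and 0 h, where 26.4% of all probe sets did. The 4 that were higher (12.1% of all) were again those of Cdkn1a, Cdkn1c and Ccnd3, and the 1 that was lower (14.2% of all) was the 94232_at probe set of Ccnd1. The median change of the 10 was 0.83, against -0.03 over all. Across all times, 8 of 10 differed in the control cells (40% of all probe sets) and 8 of 10 in the treated cells (36.2%). Neither count includes Cdkn2a or Cdkn2c. In the control series the call of Cdkn2d (adjusted p = 0.0394) was lost in 20 of 30 alternative fits (up to 0.234, without control 48 h replicate 1), among them those without any 1 of the 10 control arrays or either TSA array at 0, 12 or 48 h. That of Cdkn1b (0.0341) was lost without either control array at 0 or 24 h, control 4 h replicate 2 or control 48 h replicate 1 (0.0531 to 0.0761), and that of Ccnd1 94231_at without control 48 h replicate 2 (0.0521). In the treated series the call of Ccnd1 94231_at (0.0445) was lost without either TSA array at 12 or 24 h, TSA 48 h replicate 1, or either control array at 0, 4 or 24 h (0.0532 to 0.229).

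TSA against control, averaged over the 5 times, gave 6 of 10 member probe sets called, where 22% of all were. Cdkn1a (both probe sets), Cdkn1c, Ccnd3 and Ccnd1 94232_at were higher with TSA, 5 in all (10.2% of all probe sets were higher), and Cdkn1b 161010_r_at was lower (11.9% of all). The median change of the 10 was 0.24, against -0.03 over all. At single times with 2 arrays against 2, other numbers passed: 2 of 10 at 0 h (17.9% of all), 2 at 4 h (11.4%), 1 at 12 h (4.08%), 3 at 24 h (5.94%) and 2 at 48 h (19.6%). The shares at 0 and 48 h lay near those of all probe sets. The effect of TSA differed between times for 3 of 10, Cdkn1c, Cdkn2d and Ccnd1 94232_at, a share near the 22.2% of all. The effect at 48 h minus that at 0 h passed for 0 of 10 in limma, with 1 at an unadjusted p under 0.05, where 20.3% of all probe sets passed. Fits of only the 4 arrays of a time took the spread from 2 arrays a group. In them 1 member passed at 0 h (Cdkn1c) and 0 at 4, 12, 24 and 48 h. Of all 7453 probe sets, 1138, 81, 0, 9 and 20 passed at these 5 times. From 4 to 48 h, 3, 3, 6 and 3 of the 10 members had an unadjusted p under 0.05 in limma. Of all 7453 probe sets, 1603, 1290, 981 and 1498 had one. The comparisons of TSA with control and of the control over time share the control arrays, so their values are given side by side and not related to each other.

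**Figure D1:**
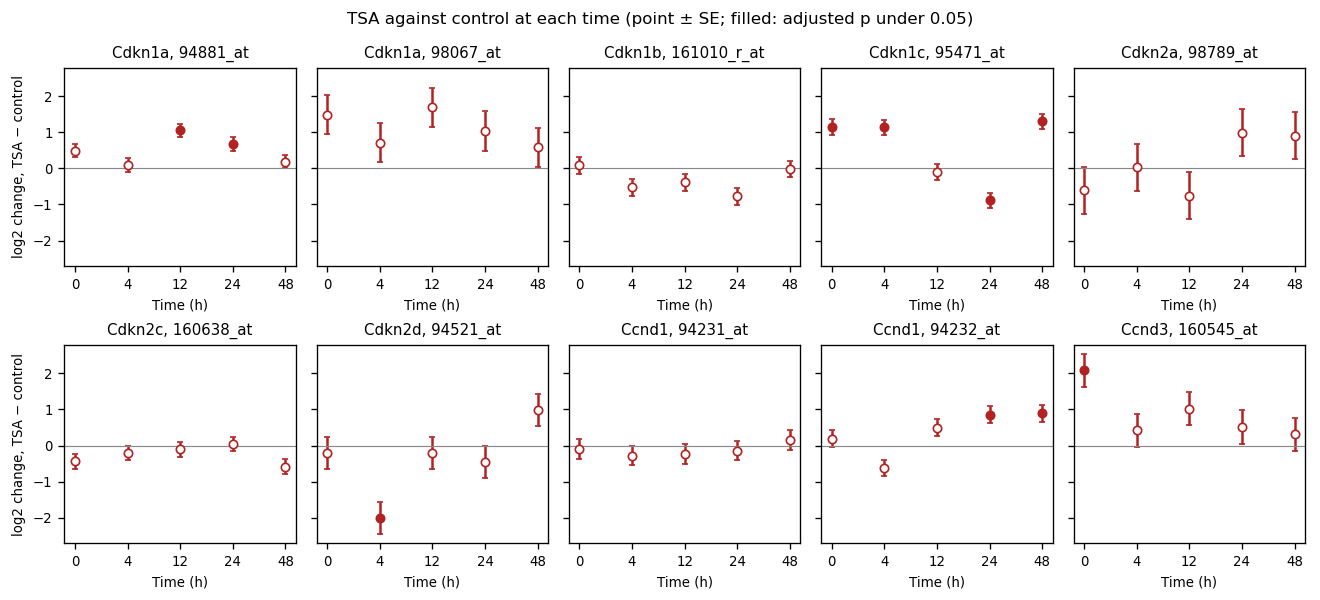
Log2 change of TSA against control (vertical axis, the same in all panels) at 0, 4, 12, 24 and 48 h for the 10 member probe sets tested. Points are fitted changes, bars are standard errors, and filled points have an adjusted p under 0.05: Cdkn1c is filled above 0 at 0, 4 and 48 h and below 0 at 24 h, and Cdkn2d is filled at 4 h with a change of -2.01.

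Cdkn1a encodes p21 and spans chr17:29090979-29100722 in GRCm38.p6. Its probe set 94881_at read 904 and 1035 in the 2 control arrays at 0 h, 1398 and 1691 at 4 h, 1625 and 2227 at 12 h, 4085 and 4028 at 24 h, and 9978 and 7915 at 48 h. With TSA it read 1233 and 1608, then 1873 and 1453, then 4099 and 4121, then 6441 and 6651, and at last 9508 and 10763. Both series climbed, and the treated arrays stood above the control arrays at 0, 12 and 24 h and overlapped them at 4 and 48 h. The control rose by 3.03 ± 0.18 between 0 and 48 h (adjusted p = 8.59e-08) and the treated cells by 2.73 ± 0.18 (2.54e-07). TSA raised it by 1.06 ± 0.18 at 12 h (adjusted p = 0.00512), by 0.67 ± 0.18 at 24 h (0.0498) and by 0.50 ± 0.08 over the 5 times (0.000734). At 0, 4 and 48 h the differences were 0.49, 0.09 and 0.18 (adjusted p = 0.0905, 0.82 and 0.524). The 12 h call was lost without TSA 12 h replicate 2 (adjusted p = 0.0533). The 24 h call was lost without either array of TSA at 0, 12, 24 or 48 h or of the control at 0, 4 or 24 h (0.052 to 0.192), whereas the mean over times held without each array in turn. A difference of the TSA effect between times (adjusted p = 0.0679) passed without control 12 h replicate 2 (0.0409).

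The second Cdkn1a probe set, 98067_at, read 692 and 198 in the control at 0 h, 487 and 1964 at 4 h, 1532 and 1196 at 12 h, 3489 and 3840.1 at 24 h, and 11742 and 11155 at 48 h. With TSA it read 1091 and 1644, then 2824 and 1037, then 4857 and 4471, then 7822 and 7456, and at 48 h 19452 and 15242. The treated arrays were higher than the controls at every time except 4 h, where both groups spread widely and overlapped. The control rose by 4.46 ± 0.54 from 0 to 48 h (adjusted p = 3.79e-05) and the treated cells by 3.55 ± 0.54 (0.000334). TSA raised it by 1.10 ± 0.24 over the 5 times (0.00541), but no single time passed in the fit of all arrays, with changes of 0.58 to 1.68 and adjusted p of 0.0801 to 0.495. Without control 0 h replicate 1, or without either control array at 4 h, the 0 h difference passed (adjusted p = 0.0427, 0.0344 and 0.0344). The 2 probe sets thus shared the direction at every time, with a larger spread in 98067_at.

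Cdkn1c, which encodes p57 (chr7:143458339-143461059), was the member whose response to TSA changed most clearly with time. The control arrays read 152 and 134 at 0 h, 129 and 151 at 4 h, 122 and 262 at 12 h, 566 and 534 at 24 h, and 636 and 703 at 48 h. The treated arrays read 576 and 406, then 441 and 502, then 114 and 220.3, then 272 and 199, and finally 1956 and 1746. The treated cells therefore stood above the controls in growth medium and at 4 h, overlapped them at 12 h, lay below them at 24 h and stood above them again at 48 h. The control readings at 0 and 4 h lay near the constant of 137.7, so the size of changes measured against them depends on that constant. TSA raised it by 1.15 ± 0.21 at 0 h (adjusted p = 0.00222), by 1.13 ± 0.21 at 4 h (0.00413) and by 1.30 ± 0.21 at 48 h (0.00114). At 24 h it was lower by -0.89 ± 0.21 (0.0277), and at 12 h the difference was -0.10 ± 0.21 (0.878). The F test of a difference between times gave an adjusted p of 0.000639, and the mean over times was 0.52 ± 0.10 (0.00177). The 24 h call was lost without TSA 24 h replicates 2 and 3 (adjusted p = 0.0581 and 0.185) and without control 24 h replicates 2 and 3 (0.13 and 0.111), while the calls at 0, 4 and 48 h and the F test held without each array in turn.

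The turn of Cdkn1c under TSA came between neighbouring times, which were compared after the values had been seen. From 4 to 12 h it fell by 1.02 on the log2 scale (± 0.21) in the treated cells (adjusted p = 0.0135), and the change was 0.22 ± 0.21 in the control (0.637). The fall was not called without TSA 4 h replicate 2 (0.0921) or TSA 12 h replicate 1 (0.157). From 12 to 24 h it rose by 1.09 ± 0.21 in the control (0.00478), and the change was 0.31 ± 0.21 with TSA (0.506). From 24 to 48 h it rose by 2.42 ± 0.21 with TSA (1.01e-05), where the control changed by 0.23 ± 0.21 (0.508).

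Cdkn1b, which encodes p27 (chr6:134920401-134925525), is read by a dim and a moderate probe set. The first, 100278_at, read -179.5 to 65.7 on the TSA-arm arrays and 2.89 to 20.9 on those of the Sir2 arm, and was below the filter in both. The second, 161010_r_at, whose r marks a set made with relaxed probe selection, read 366 and 398 in the control at 0 h, 392 and 175 at 4 h, 371 and 429 at 12 h, 539.6 and 595 at 24 h, and 809 and 489 at 48 h. With TSA it read 349.9 and 484, then 146 and 143, then 239 and 311, then 283 and 263, and then 629 and 619. The treated arrays were below the controls at 4, 12 and 24 h and overlapped them at 0 and 48 h. It was lower with TSA by -0.32 ± 0.10 over the 5 times (adjusted p = 0.0412), and no single time passed (smallest 0.0747, at 24 h). The 4 h difference passed without control 4 h replicate 2 (0.036), and the 24 h difference without either control array at 4 h (0.0309) or at 48 h (0.047). The control changed by 0.57 ± 0.23 from 0 to 48 h (0.0764), which passed without either control array at 4 h (0.0325) or control 48 h replicate 2 (0.0228). Within the treated cells it fell from 0 to 4 h, by -0.96 ± 0.23 (0.0292), and rose from 24 to 48 h, by 0.89 ± 0.23 (0.019). The mean over times was called in 8 of 28 alternative fits and lost in 20, with adjusted p between 0.0066 and 0.0883. Of the fits without 1 array, 16 lost it: without TSA 0 h replicate 1, either TSA array at 4 h, TSA 12 h replicate 1, either TSA array at 24 or 48 h, either control array at 0, 12 or 24 h, control 4 h replicate 1 and control 48 h replicate 1. Those adjusted p lay between 0.0526 and 0.0883.

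**Figure D2:**
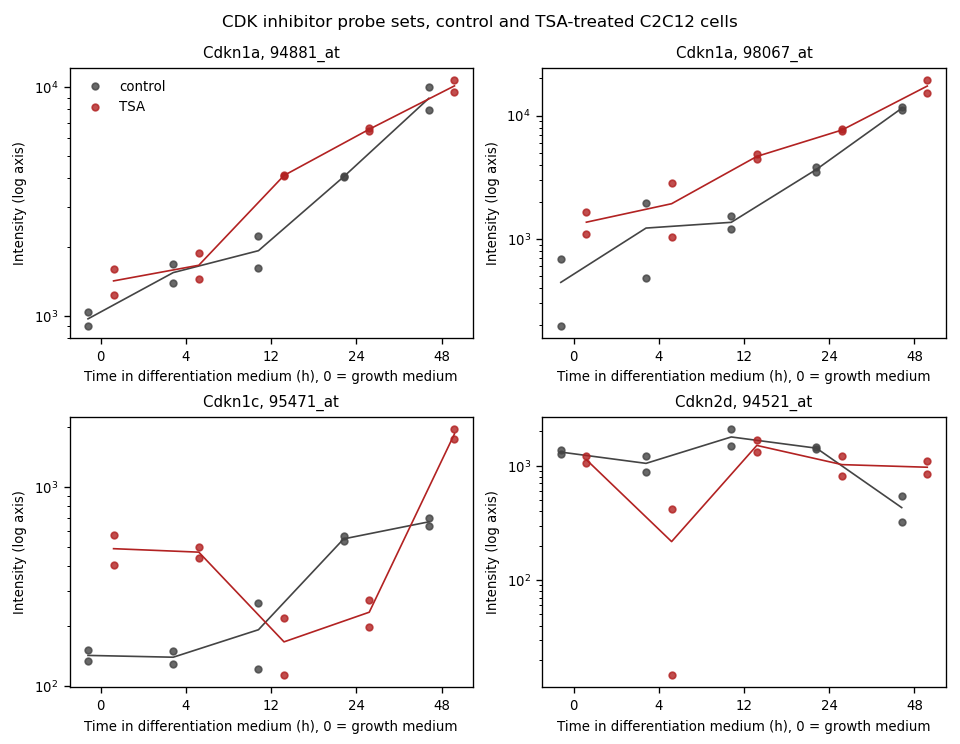
Deposited intensity (log axis) of 4 CDK inhibitor probe sets with and without TSA at 0, 4, 12, 24 and 48 h, spaced evenly. Points are arrays, 2 per group, and lines join group means: Cdkn1a climbs in both series, Cdkn1c crosses between them, and 1 treated array of Cdkn2d reads 14.8 at 4 h.

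Among the INK4 inhibitors, Cdkn2d (p19) moved with time and Cdkn2c (p18) and Cdkn2a (p16 and Arf) were not called in any of the comparisons planned in the TSA arm. Cdkn2d, on chromosome 9, read 1261 and 1374 in the control at 0 h, 880.3 and 1219 at 4 h, 2093 and 1479.7 at 12 h, 1389.6 and 1461 at 24 h, and 322 and 539 at 48 h. With TSA it read 1209 and 1051, then 419 and 14.8, then 1688 and 1325, then 1228 and 818, and 842 and 1100.0 at 48 h. The treated arrays were below the controls at 0, 4 and 24 h, overlapped them at 12 h and were above them at 48 h, and the lowest reading by far was treated replicate 2 at 4 h. The control fell by -1.38 ± 0.44 from 0 to 48 h (adjusted p = 0.0283), while the treated cells changed by -0.20 ± 0.44 (0.789). TSA lowered it at 4 h by -2.01 ± 0.44 (0.0107) and the difference at 48 h was 0.98 ± 0.44 (0.145), with an adjusted p of 0.0368 for a difference between times. The 4 h call was lost without TSA 4 h replicate 2 (0.0527) or control 4 h replicate 2 (0.0853).

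Most of the other Cdkn2d results rested on single arrays. The fall of the control to 48 h was lost without either control array at 0 h (adjusted p = 0.0879 and 0.113) or control 48 h replicate 1 (0.158). The mean over times, -0.38 ± 0.20 (0.204), passed without TSA 4 h replicate 1 (0.00469). Without either TSA array at 4 h, the 48 h difference (0.017) and its excess over the 0 h difference (0.034) passed as well. The difference between times was lost in 17 of 29 alternative fits, among them those without either TSA array at 0, 12 or 48 h, either control array at 0, 4 or 24 h, control 12 h replicate 2 and control 48 h replicate 1 (0.0504 to 0.114).

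Cdkn2c, on chromosome 4, read between 1739 and 2663 on the control arrays of the TSA arm and between 1244 and 2517 on the treated ones. Its TSA arrays lay below the controls at 0, 4, 12 and 48 h and overlapped them at 24 h. Over the 5 times the difference was -0.26 ± 0.09 (adjusted p = 0.0613), and at 48 h, with 1638 and 1244 against 2546 and 1908, it was -0.58 ± 0.20 (0.0641). Both lay close to the threshold: the mean passed without TSA 24 h replicate 3, TSA 48 h replicate 1, control 4 h replicate 2, control 24 h replicate 2 or control 48 h replicate 2 (0.0171 to 0.0495). The 48 h difference passed without either control array at 24 h (0.0367) or control 48 h replicate 2 (0.0464). Cdkn2a spread from -152 to 907 in the TSA arm, with replicates as far apart as 231 and 907 in the treated cells at 48 h. Its differences between TSA and control ran from -0.76 to 0.99 with standard errors of 0.65 at each time, and the smallest adjusted p was 0.374.

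Of the D cyclins, Ccnd1 fell and Ccnd3 rose as the cells differentiated. Ccnd1 encodes cyclin D1 (chr7:144929931-144939831). Its probe set 94232_at read 2572 and 2396 in the control at 0 h, 3911 and 3547 at 4 h, 3499 and 3156 at 12 h, 1111 and 1334 at 24 h, and 642 and 288 at 48 h. With TSA it read 2988 and 2723, then 2427 and 2329, then 4482 and 5032, then 2192 and 2426, and 770.1 and 1116 at 48 h. No time showed overlapping groups: the treated arrays were lower at 4 h and higher at each of the other times. The control fell by -2.18 ± 0.23 between 0 and 48 h (adjusted p = 1.14e-05) and the treated cells by -1.49 ± 0.23 (0.00039). TSA raised it by 0.85 ± 0.23 at 24 h (0.0498), by 0.89 ± 0.23 at 48 h (0.0173) and by 0.36 ± 0.10 over the 5 times (0.0237), and at 4 h the difference was -0.62 ± 0.23 (0.113). The effect differed between times (adjusted p = 0.021).

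Several of these Ccnd1 94232_at calls depended on single arrays. The 24 h call was lost without either TSA array at 0, 4, 12 or 24 h or either control array at 0, 4, 12 or 24 h (adjusted p = 0.0645 to 0.226), and the 48 h call without TSA 48 h replicate 2 (0.141) or control 48 h replicate 2 (0.138). The mean was lost without TSA 12 h replicate 2 (0.0507), control 0 h replicate 2 (0.0504) or control 24 h replicate 2 (0.0501). The difference between times was lost without any of the 4 arrays at 4 h (0.0514 to 0.0744). Without either control array at 48 h the 4 h difference passed (0.0231), and without control 48 h replicate 1 so did the excess at 48 h over 0 h (0.00754). The falls from 0 to 48 h in control and in treated cells held without each array in turn.

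The second Ccnd1 probe set, 94231_at, read 702 and 723 in the control at 0 h, 973 and 876 at 4 h, 1372 and 1022 at 12 h, 640.0 and 827 at 24 h, and 407 and 251 at 48 h. With TSA it read 791 and 541, then 1000.2 and 531, then 1041 and 933, then 670.3 and 622, and 285 and 479 at the end. Treated and control arrays overlapped at all 5 times, and no TSA difference was called (-0.28 to 0.15, adjusted p = 0.581 to 0.87 at single times). The control fell by -0.89 ± 0.27 from 0 to 48 h (0.0214), and the treated cells changed by -0.64 ± 0.27 (0.103). The control's fall was lost without either control array at 0 h (0.0775 and 0.088) or control 48 h replicate 2 (0.15). The 2 Ccnd1 probe sets thus both fell in control cells but differed on TSA, which raised 94232_at and was not called for 94231_at. Whether the 2 differ was not tested.

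Ccnd3 encodes cyclin D3 (chr17:47505051-47599689). The control arrays read 162 and 87.6 at 0 h, 966 and 378 at 4 h, 2109.6 and 764 at 12 h, 2474 and 2329.7 at 24 h, and 3969 and 3064 at 48 h. The treated arrays read 1533 and 583, then 942 and 810.0, then 2889 and 2632, then 3881 and 3115, and 3642 and 5211 at 48 h. In growth medium both treated arrays were above both controls, as they were at 12 and 24 h, and the groups overlapped at 4 and 48 h. The control rose by 3.80 ± 0.46 between 0 and 48 h (adjusted p = 3.77e-05) and the treated cells by 2.04 ± 0.46 (0.00566). TSA raised it by 2.08 ± 0.46 at 0 h (0.00691) and by 0.87 ± 0.21 over the 5 times (0.00855), and the other single times did not pass (0.31 to 1.02, adjusted p = 0.287 to 0.691). The effect at 48 h minus that at 0 h was -1.77 ± 0.65 (0.0744). It passed without TSA 0 h replicate 2 (0.0282) or either control array at 12 h (0.044). The 0 h call was lost without TSA 0 h replicate 1 (0.0898) or control 0 h replicate 2 (0.0635), and the rise of the treated cells without TSA 0 h replicate 2 (0.0727).

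Ccnd2, which encodes cyclin D2 (chr6:127125162-127152188), was dim, fell below the filter in both arms, and takes no fold in the TSA arm because at every time 1 of the 2 groups lay at or below 0. The control arrays read -77.9 and -88.5 at 0 h, -138 and -95.5 at 4 h, -47.9 and -182 at 12 h, -4 and -96.9 at 24 h, and then 93.6 and 202 at 48 h. The treated arrays read 175 and 154, then 136 and 31.9, then 8.21 and 124, then 200 and 168, and -22.8 and -132 at 48 h. No time showed overlapping groups: treated arrays were the higher at 0 to 24 h and the lower at 48 h. In a fit of all probe sets without the filter, the difference between times had an adjusted p of 0.00976 and that between 48 and 0 h one of 0.00314. A group set to 0 on every array has no spread, so these p-values can be too small.

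**Figure D3:**
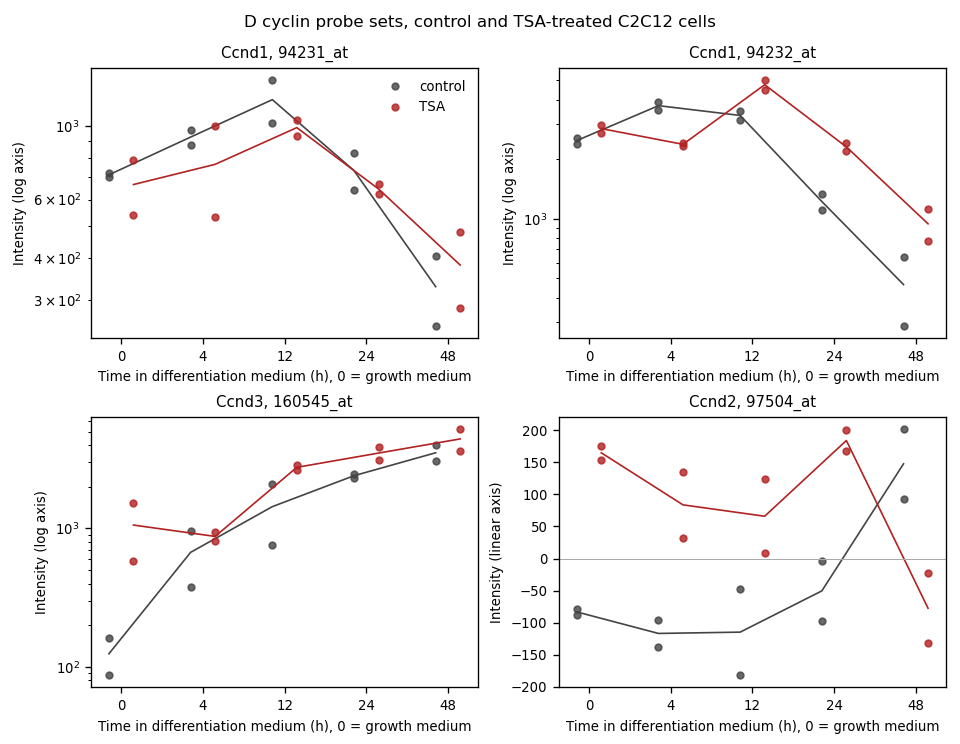
Deposited intensity of the 4 D cyclin probe sets with and without TSA at 0, 4, 12, 24 and 48 h, spaced evenly, on log axes except for Ccnd2, whose linear axis holds values below 0. Points are arrays, 2 per group, and lines join group means: Ccnd1 94232_at ends at 288 to 642 in the control and 770.1 to 1116 with TSA, and Ccnd2 changes sides between 24 and 48 h.

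The member probe sets called at each step of the time course are given for each of the 2 series, without a comparison between the series. These steps between neighbouring times were compared after the data had been seen. In control cells 0 of 10 member probe sets passed in limma from 0 to 4 h (2.05% of all probe sets, and 3 members at an unadjusted p under 0.05) and 0 of 10 from 4 to 12 h (2.91% of all, no member at an unadjusted p under 0.05). From 12 to 24 h 3 passed (14.1% of all): Cdkn1a 94881_at by 1.04 ± 0.18 and Cdkn1c by 1.09 ± 0.21 upward, and Ccnd1 94232_at by -1.35 ± 0.23. From 24 to 48 h 4 passed (18.9% of all): Cdkn1a 94881_at rose by 1.11 ± 0.18, and Cdkn2d, Ccnd1 94231_at and Ccnd1 94232_at fell by -1.49 ± 0.44, -0.91 ± 0.27 and -1.23 ± 0.23. The last step of Cdkn2d was lost without any of the 4 arrays compared (adjusted p = 0.0516 to 0.166), and that of Ccnd1 94231_at without control 24 h replicates 2 and 3 or control 48 h replicate 2 (0.0601 to 0.196). Of Cdkn1a 98067_at the last step was 1.61 ± 0.54 (0.0565), and it passed without either TSA array at 4 h or either control array at 0 or 4 h (0.0242 to 0.0445). With median centring the share of called probe sets that were higher moved from 52.9% to 38% in the first step and from 42.9% to 57.7% in the second.

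In treated cells 2 of 10 passed from 0 to 4 h (6% of all probe sets), both downward: Cdkn1b 161010_r_at and Cdkn2d, the latter by -2.12 ± 0.44 (adjusted p = 0.0144). From 4 to 12 h 4 of 10 passed (6.27% of all). Cdkn1a 94881_at rose by 1.25 ± 0.18 (0.0015), Cdkn2d by 2.49 ± 0.44 (0.00555) and Ccnd1 94232_at by 0.96 ± 0.23 (0.0284), and Cdkn1c fell. From 12 to 24 h 1 passed (5.15% of all), Ccnd1 94232_at, by -0.9998 ± 0.23 (0.0261). From 24 to 48 h 4 passed (16.9% of all), with Cdkn1a 94881_at, Cdkn1b 161010_r_at and Cdkn1c higher and Ccnd1 94232_at lower by -1.20 ± 0.23 (0.00338). Both downward steps from 0 to 4 h were lost without either TSA array at 0 h or TSA 4 h replicate 2 (0.0658 to 0.211), and that of Cdkn1b without TSA 4 h replicate 1 as well (0.0948). Steps lost in the same way were those of Cdkn2d from 4 to 12 h without TSA 12 h replicate 1 (0.0582), of Ccnd1 94232_at from 4 to 12 h (0.0924 to 0.171) and 12 to 24 h (0.0985 to 0.172) without any of their 4 arrays, and of Cdkn1a 94881_at and Cdkn1b from 24 to 48 h without any of theirs (0.0633 to 0.172). Steps not called that passed without 1 array were those of Ccnd3 from 4 to 12 h and Cdkn1a 94881_at from 12 to 24 h, without either control array at 12 h (0.0444 and 0.0487), and of Cdkn2c from 24 to 48 h without either control array at 24 h (0.0375). With median centring the share of called probe sets that were higher moved from 52.9% to 66.7% between 4 and 12 h and from 52.3% to 40.1% between 12 and 24 h. With only the arrays of the 2 times fitted, the rise of Cdkn1c with TSA from 24 to 48 h was the only one of these steps, in control or treated cells, that was still called, and that of Cdkn1a 98067_at in the control over the same interval passed (0.0468). Whether a step differed between treated and control cells was not tested as such.

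In the Sir2 arm, cells carrying Sir2 had more Ccnd1 and Cdkn2d and less Cdkn1a (94881_at), Cdkn1c and Ccnd3 than vector cells. Of the 8 member probe sets tested there, 6 passed over the mean of both times, where 12.6% of all probe sets did: 3 higher (7.49% of all), both of Ccnd1 and Cdkn2d, and 3 lower (5.09% of all). The median change of the 8 was -0.02, against -0.01 over all. At 12 h 4 of 8 passed (5.55% of all) and at 36 h 3 of 8 (9.26%). The Sir2 effect at 36 h minus that at 12 h passed for 0 of 8 in limma (1.76% of all), with 2 at an unadjusted p under 0.05. With each array centred on its median, the share of called probe sets that were higher moved from 50% to 36.6% at 12 h and from 65.2% to 75.6% at 36 h, and for the difference between the times from 72.5% to 85.1%. Cdkn1b, Cdkn2a and Ccnd2 were below the filter, with signals of at most 37.4, 53 and 26.6 on any array.

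Ccnd1 showed the largest Sir2 differences of the members tested. Probe set 94232_at read 581, 529 and 606 in the Sir2 cells and 205, 221 and 200.2 in the vector cells at 12 h, and 223, 226 and 205 against 105, 89.7 and 105 at 36 h. Every Sir2 array lay above every vector array of its time. The differences were 1.41 ± 0.11 at 12 h (adjusted p = 1.37e-05), 1.06 ± 0.11 at 36 h (0.000104) and 1.24 ± 0.07 on average (2.56e-06). Probe set 94231_at read 171, 128 and 165 against 59.2, 60.1 and 39.1 at 12 h, and 68.6, 57.6 and 42.7 against 28.8, 24.8 and 26.5 at 36 h, again without overlap. It was higher with Sir2 by 1.42 ± 0.18 (0.00086), 0.86 ± 0.18 (0.0117) and on average 1.14 ± 0.13 (0.000133). The 36 h call of 94231_at was lost without Sir2 36 h replicate a (0.0525). In this arm both probe sets of the gene moved alike.

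Cdkn1a 94881_at read 698, 813 and 766 with Sir2 and 1137, 1109 and 1233 with vector at 12 h, and 1759, 1711 and 1909 against 2491, 2332 and 2421 at 36 h. All Sir2 arrays were below all vector arrays of the same time. The change was -0.61 ± 0.10 at 12 h (adjusted p = 0.00434), -0.43 ± 0.10 at 36 h (0.0206) and -0.52 ± 0.07 on average (0.000536). The 36 h call was lost without Sir2 36 h replicates a and b or vector 36 h replicates a and c (0.0628 to 0.0703) and with median centring (0.0571). Probe set 98067_at read 610.2, 622 and 408 against 562, 379 and 573 at 12 h, overlapping, and 923, 900.3 and 1102 against 1332, 1389 and 1257 at 36 h, all lower. Its changes of 0.11, -0.44 and -0.17 on average were not called (0.837, 0.179 and 0.491).

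Cdkn1c read 126, 109 and 155 with Sir2 and 158, 219 and 212 with vector at 12 h, and 865, 958 and 976 against 1217, 1365 and 1327 at 36 h. The groups did not overlap at either time, with the Sir2 cells lower. The change was -0.57 ± 0.15 at 12 h (adjusted p = 0.0478), -0.48 ± 0.15 at 36 h (0.069) and -0.52 ± 0.11 on average (0.00646). The 12 h call was lost without any 1 of 10 arrays, all but Sir2 12 h replicate c and vector 12 h replicate a (0.0615 to 0.171), and the 36 h difference passed without either of those 2 (0.0489 and 0.0454). The average held without each array in turn.

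Cdkn2d read 343, 358 and 417 with Sir2 against 250.4, 279 and 280.0 at 12 h, and 137, 130 and 169.7 against 129, 109.7 and 112 at 36 h, each time without overlap. It was higher with Sir2 by 0.37 ± 0.09 on average (adjusted p = 0.0178), and by 0.45 ± 0.13 at 12 h (0.0617) and 0.29 ± 0.13 at 36 h (0.183). The 12 h difference passed without Sir2 36 h replicate c (0.0469). Ccnd3 read 531, 589 and 658 against 753, 791 and 869.6 at 12 h, and 1042, 929.6 and 981 against 1497, 1268 and 1007 at 36 h, where the groups overlapped. It was lower with Sir2 by -0.39 ± 0.10 on average (0.0281), a call lost without Sir2 12 h replicates a and b, Sir2 36 h replicates b and c, vector 12 h replicate c or vector 36 h replicates a and b (0.0541 to 0.0693). Cdkn2c read 341, 334 and 334 against 290.0, 276 and 297 at 12 h, and 249.9, 213 and 190.0 against 210.1, 222 and 200.1 at 36 h, above the vector cells at 12 h and overlapping them at 36 h. Its average difference was 0.13 ± 0.08 (0.338).

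Between 12 and 36 h all 8 tested member probe sets passed in vector cells (32.1% of all probe sets) and all 8 in Sir2 cells (28.5%). In both, the 4 that were higher were the 2 of Cdkn1a, Cdkn1c and Ccnd3 (12.4% and 11.7% of all probe sets were higher), and the 4 that were lower were Cdkn2c, Cdkn2d and both of Ccnd1 (19.7% and 16.9% of all). Cdkn1c rose most, by 2.69 ± 0.15 in vector and 2.78 ± 0.15 in Sir2 cells (adjusted p = 1.04e-07 and 7.23e-08). Cdkn1a 94881_at rose by 1.05 ± 0.10 and 1.23 ± 0.10, and Ccnd3 by 0.62 ± 0.14 and 0.73 ± 0.14. Ccnd1 94232_at fell by -1.003 ± 0.11 and -1.36 ± 0.11, Cdkn2d by -1.15 ± 0.13 and -1.31 ± 0.13, and Cdkn2c, which did not pass in the TSA arm, by -0.44 ± 0.11 and -0.62 ± 0.11. All 16 of these calls held without each array in turn. With median centring, 53.2% and not 40.9% of the probe sets called in Sir2 cells were higher.

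**Figure D4:**
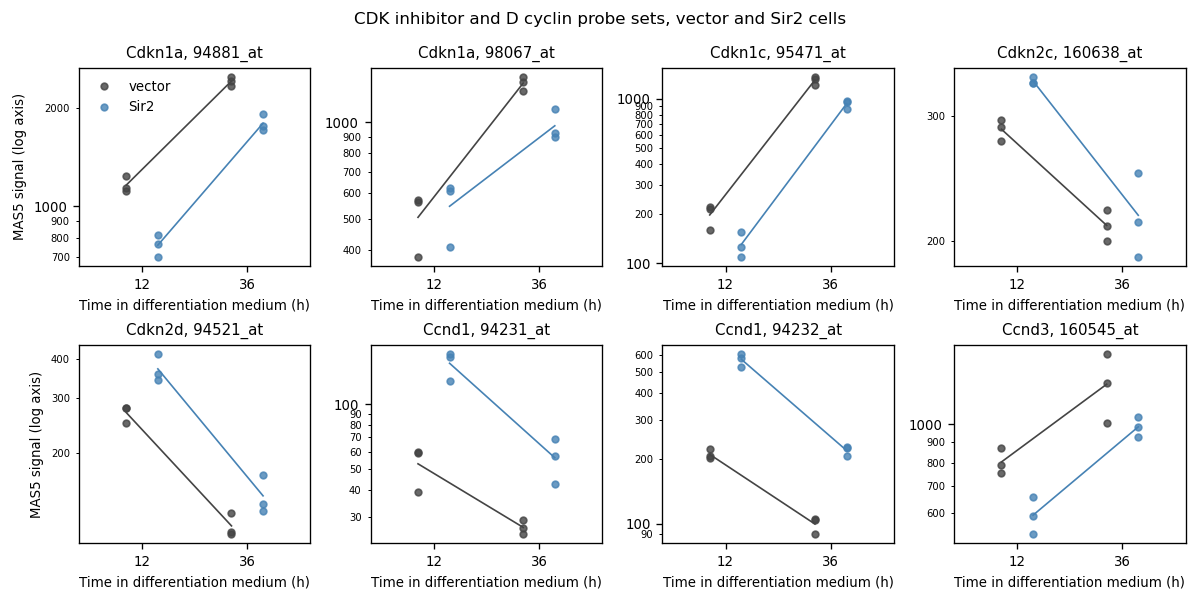
Deposited signal (log axes that differ between panels) of the 8 member probe sets tested in the Sir2 arm, in vector and Sir2 cells at 12 and 36 h. Points are arrays, 3 per group, and lines join group means: the Sir2 arrays of both Ccnd1 panels lie above the vector arrays, and those of Cdkn1a 94881_at and Cdkn1c below them.

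The partners of these proteins in the step from G1 to S phase were read through a list of 30 genes, 23 of them on the array, with 21 tested in the arm treated with TSA and 20 in that with Sir2. In control cells 15 of 21 passed between 48 and 0 h, where 35.3% of all probe sets did, 2 higher (16% of all) and 13 lower (19.3%), and the median change of the 21 was -1.04 against 0.01 over all probe sets. Cks2, which encodes a small CDK subunit, fell by -2.45 ± 0.13 (adjusted p = 2.23e-08), and Pcna, the sliding clamp of DNA replication, by -2.43 ± 0.14 (6.67e-08). Cdkn3, a CDK phosphatase, and Cks1b, a cofactor in the turnover of p27, fell by -2.23 ± 0.15 and -2.26 ± 0.16. In treated cells 9 of 21 passed over the same interval (26.4% of all), 4 higher (12.1% of all) and 5 lower (14.2%). Their median was -0.22 over the 21, against -0.03 over all. TSA lowered 7 of the 21 at 0 h (10% of all probe sets were lower) and raised none, and Cks2, Cdkn3, Cks1b and Cdk4 changed by -1.10 ± 0.13, -1.29 ± 0.15, -1.17 ± 0.16 and -0.57 ± 0.11. At 48 h it raised 6 (10.5% of all were higher), among them Cdkn3 by 1.41 ± 0.15, Cks2 by 1.13 ± 0.13 and Pcna by 1.12 ± 0.14, and lowered 2 (9.1% of all), Mnat1 and Rbl2. Genes named at these 2 single times were chosen after their values were seen. Over the 5 times 5 of 21 passed, a share near the 22% of all probe sets. Of these, 2 were higher (10.2% of all) and 3 lower (11.9%), with a median of 0.02 over the 21 against -0.03. Those of smallest adjusted p were Cdk4, the partner of the D cyclins, at -0.28 ± 0.05 (0.00135), Pcna at 0.35 ± 0.06 (0.00147), Skp1 at 0.39 ± 0.08 (0.00227) and Cdkn3 at -0.30 ± 0.07 (0.00632). In the Sir2 arm 5 of 20 passed on average (12.6% of all), 4 higher (7.49% of all) and 1 lower (5.09%). Cks2 (0.65 ± 0.08, adjusted p = 0.000299), Rbl1, Cks1b and Cdkn3 were higher and Rb1, the retinoblastoma gene, lower (-0.60 ± 0.12, 0.0049).

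Factors known to regulate the members made a second list of 25 genes, 22 on the array, of which 19 were tested for TSA and 21 for Sir2. In control cells 12 of 19 passed between 48 and 0 h (35.3% of all probe sets). Of these, 4 were higher (16% of all) and 8 lower (19.3%), with a median of -0.37 over the 19 against 0.01. Myog, a myogenic factor, rose by 6.59 ± 0.44 (adjusted p = 1.94e-07) and Myod1, which is known to induce Cdkn1a, by 1.37 ± 0.11 (7.67e-07). Id2, an inhibitor of such factors, fell by -4.42 ± 0.25 (5.78e-08), and the deacetylase gene Hdac1 by -2.30 ± 0.21 (3.66e-06). TSA over the 5 times gave 12 of 19 called (22% of all), 7 higher (10.2% of all) and 5 lower (11.9%). The median was 0.12 over the 19, against -0.03 over all. Id2 was higher by 1.69 ± 0.11 (6.06e-07), Mdm2, a target and inhibitor of p53, by 0.48 ± 0.07 (0.000343) and Hdac1 by 0.58 ± 0.09 (0.000689), and Bmi1, a Polycomb protein that represses Cdkn2a, was lower by -0.47 ± 0.08 (0.000917). In the Sir2 arm 9 of 21 passed on average (12.6% of all), 6 higher (7.49% of all) and 3 lower (5.09%). The 6 include Sirt1, the mouse counterpart of the introduced Sir2, so that call is not a separate result about the regulators. The median was 0.03 over the 21, against -0.01 over all. Myod1 was lower by -0.42 ± 0.08 (0.00336) and Myog by -0.62 ± 0.14 (0.0148), and Myf5 was higher by 0.52 ± 0.12 (0.0153).

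Genes whose pattern over the 20 TSA-arm arrays was most like that of a member were named by Pearson correlation of log2 values, as a description over arrays that share time and treatment. For Cdkn1a 98067_at these were Cd82 (r = 0.94), Pdlim4 (0.93) and Traf4 (0.93), and over the 12 Sir2-arm arrays the same pairs gave 0.44, 0.47 and -0.23. Cdkn1c was most like Lama2 (0.92), Fyn (0.92) and Erbb3 (0.91), with 0.89, 0.95 and 0.84 in the Sir2 arm. Ccnd1 94232_at was most like Nme1 (0.94), Lasp1 (0.94) and Actn1 (0.93), with 0.59, 0.91 and 0.84 there. Ccnd3 was most like Traf4 (0.92), Tmed4 (0.90) and Cope (0.87), of which Tmed4 kept 0.87 in the Sir2 arm and Traf4 and Cope gave 0.24 and -0.18. Cdkn2d was most like Zdhhc6 (0.92), Msmo1 (0.88) and Trip6 (0.85), with 0.67, 0.91 and 0.77 there. For Cdkn1b 161010_r_at, Cdkn2c and Cdkn2a the highest coefficients were 0.88 (Vps26c), 0.84 (Ebf3) and 0.68 (Psmd11). In the Sir2 arm, where Cdkn1b and Cdkn2a were below the filter, these pairs gave -0.14, 0.49 and 0.21.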

How the data were processed

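RNA was measured on 32 mouse oligonucleotide arrays, and the deposited table holds 1 linear intensity per probe set and array. The Sir2-arm intensities are MAS5 signals per the submitters' processing notes, with no version stated, and for the TSA-arm intensities the sources used here give no tool. TSA-arm values below 0 were set to 0. Log2 of intensity plus a constant was analysed, the 40th percentile of all values in the TSA arm (137.7) and the 20th in the Sir2 arm (8.82), since the 20th lay below 0 (-13.7) in the TSA arm.

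Of 12422 probe sets left after 66 control sets, 7453 per arm reached the 40th percentile of probe set means (144.9 and 31.1) and were tested. Platform annotation gave 10833 probe sets 1 gene symbol, 396 several and 1193 none. Each arm was fitted in limma 3.58.1 (R 4.3.3) with 1 mean per group and eBayes, on 10 and 8 residual degrees of freedom, with Benjamini-Hochberg adjustment over all probe sets tested and a threshold of 0.05. The number of arrays limits the precision. In simulated data with 200 of 7453 probe sets changed, a log2 change of 1 was recovered for 55.2% to 68.7% of those changed at single TSA times, 94.0% in the mean of 5 times, 91.0% at single Sir2 times and 97.0% in their mean. Tests of a difference between times recovered fewer. The shares were 1.49% for the TSA effect across times, 37.3% for TSA at 48 h minus 0 h and 58.2% for Sir2 at 36 h minus 12 h. Results not called in these tests therefore say little about changes of that size.

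All member probe sets are named. From the lists, up to 4 genes of smallest adjusted p are named in the means and in the control at 48 h. The exception is the list of G1 to S partners in the Sir2 mean, where all 5 called genes are named. For likeness the 3 highest coefficients are given, but only the highest for Cdkn1b, Cdkn2c and Cdkn2a. The members and lists were chosen with earlier results of these data known. Replicate numbers were not used to pair samples, except in the replicate block named next. Alternatives were other normalization, constants, filters and variance models, the replicate block, a term for the suffix b of some titles, only the groups compared, and each array left out.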

Additional observations from a re-analysis of the deposited data

Results flagged for a closer look

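The effect of TSA differed between the 5 times for 3 of 10 tested member probe sets, a share near the 22.2% of all probe sets. It also differed for 1 member below the filter. Each result came from a test of the difference itself (moderated F test in limma, adjusted over all probe sets tested). Cdkn1c 95471_at had an adjusted p of 0.000639, with 2 treated arrays above the controls at 0, 4 and 48 h and below them at 24 h. Cdkn2d 94521_at had an adjusted p of 0.0368, with its lowest treated reading, 14.8, at 4 h. This call was lost in 17 of 29 alternative fits. Ccnd1 94232_at had an adjusted p of 0.021, lower with TSA at 4 h and higher at the other times. Its call was lost in 4 of 29 alternative fits. Ccnd2 97504_at, in the fit without the filter on low values, had an adjusted p of 0.00976 for a difference between times. For the effect at 48 h against that at 0 h it was 0.00314. Control arrays were at or below 0 up to 24 h, and treated arrays were below 0 at 48 h. Groups set to 0 on every array have no spread, so both p-values can be too small.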

How the results depend on the processing

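Of 76 member results called in the 18 planned comparisons, 52 kept their call in every alternative fit, and of 92 not called 75 stayed so. No log2 change called in the main or the alternative fit reversed its direction. Changes of sign in results called in neither fit were not counted. With only the groups compared in the fit, the members called against control fell to 1 at 0 h and 0 at 4, 12, 24 and 48 h, and the probe sets called overall from 1336 to 1138, 846 to 81, 304 to 0, 443 to 9 and 1464 to 20. This fit has fewer arrays to estimate the spread. At 24 h the lower constant, no filter and the replicate block each gave 1 member in place of 3. For the effect at 48 h minus that at 0 h, the replicate block and the covariate for the suffix b each gave 1 in place of 0, and the cause was not tested. Leaving out 1 array gave 1 to 3 members called at 0 h, 1 to 3 at 4 h, 0 to 1 at 12 h, 0 to 4 at 24 h, 1 to 3 at 48 h, 4 to 7 in the mean, 1 to 3 for a difference between times and 0 to 1 for 48 h minus 0 h. It gave 5 to 8 for control 48 h against 0 h, 6 to 8 across control times, 4 to 5 for treated 48 h against 0 h and 7 to 8 across treated times. In the Sir2 arm it gave 3 to 4 at 12 h, 1 to 4 at 36 h, 5 to 6 in the mean, 0 to 0 for the difference between times, and 8 to 8 over time in vector and in Sir2 cells.

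Samples with the same replicate number deviated from their group means with correlations of -0.0997 to 0.228 (TSA arm) and -0.314 to 0.116 (Sir2 arm). With 2 arrays a group, both replicates of a TSA-arm time give the same correlation. Whether samples with the same number share a batch was not tested. The block changed 10 member calls. Among all probe sets, counts moved by more than 1.5 times with only the groups compared for control 48 h against 0 h (2630 to 1534), treated 48 h against 0 h (1965 to 1044) and Sir2 at 12 h (414 to 208), and at 12 h without the filter (243). The Sir2 difference between times moved from 131 to 46 without the filter, 207 with trend and robust and 57 with the block. For the steps, only the groups compared gave 0 called for both first steps and both second ones (from 153, 447, 217 and 467; 1506, 1216, 1328 and 1426 at an unadjusted p under 0.05 in limma), 53 and 9 for the third (from 1048 and 384) and 93 and 159 for the last (from 1405 and 1256). The block gave 120, 616 and 169 for the control from 4 to 12 h, the control from 12 to 24 h and the treated cells from 12 to 24 h. The 2 arrays a group limit single times, and dim probe sets (Cdkn1b 100278_at, Ccnd2, Cdkn2a) lie near background.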
